A study of Homo sapiens with 5 samples.

Results

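Chromosome 4 carried 386 regions with a methylated-DNA peak in at least 1 of 5 K562 libraries, of 11260 regions over the whole genome. K562 is a human chronic myeloid leukaemia cell line. The members are all peaks on chromosome 4 (877 of 23350), joined into a region where peaks of any libraries overlapped by at least 1 bp. The chromosome was selected on a measured value, the low number of its peaks in the line MT4, so that value is described here and not tested. MeDIP-seq, the sequencing of DNA fragments precipitated with an antibody against methylated cytosine, was applied to 2 wild-type cultures, labelled WT bulk and WT transfected, and to 3 DNMT3A-mutated lines, labelled MT1, MT2 and MT4. Per the series title the mutations were made with CRISPR/Cas9, and the labels' protocols call the lines clones and give all of them the same culture medium. The labels name neither the alleles nor the transfected construct. Each library is a single sample of its line, so the spread between cultures of the same line is unknown.

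DNMT3A places new methyl groups on cytosines of CpG dinucleotides, while DNMT1 copies existing ones after replication. MeDIP enriches fragments by the number of methylated CpGs they hold, so its peaks mark methylated DNA rich in CpG, and DNA with few CpGs gives little signal even when methylated. Chromosome 4 is long and poor in genes. Blocks of alpha satellite repeats flank its centromere, and the end of its long arm holds the D4Z4 repeats that contain copies of DUX4.

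WT bulk had 292 peaks on chromosome 4, WT transfected 223, MT1 144, MT2 81 and MT4 137. MT4 thus had fewer peaks here than every library but MT2, although its whole list, at 8399 peaks, is the longest. For each chromosome 4 peak of WT bulk there were 0.469 peaks in MT4. On the other 22 chromosomes (1 to 22 and X) this ratio ran from 1.08 on chromosome 14 to 1.62 on chromosome 13, with a median of 1.40. MT1 (0.493) and MT2 (0.277) stood within their own ranges over the other chromosomes, 0.257 to 0.509 and 0.143 to 0.315. Peaks on chromosome 4 covered 396 kb in WT bulk, 282 kb in WT transfected, 198 kb in MT1, 151 kb in MT2 and only 146 kb in MT4. MT4 therefore had the smallest covered length on this chromosome, below that of MT2, which had 81 peaks.

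Recovery is the percentage of regions held by at least 2 of the other 4 libraries in which a library also had a peak. On chromosome 4, MT4 kept 102 of 202 such regions, 50.5% (95% Wilson interval 43.7 to 57.3%, which covers counting error only). It lacked 100, a number that was 54 with WT bulk and 59 with WT transfected left out of the reference. Over the whole series MT4 kept 83.7% of such regions, and outside chromosome 4 it kept 85.4% (84.3 to 86.5%). The other chromosomes ranged from 75% on chromosome X to 93.75% on chromosome 18. Each of the other 4 libraries had a recovery on chromosome 4 above its own whole-series value. WT bulk held 84.8% there against 81% over the series, WT transfected 76.1% against 63.5%, MT1 54.0% against 43.4% and MT2 31.0% against 23%. Those references count MT4 as a holder. With MT4 left out of the reference, recovery on chromosome 4 and elsewhere was 86.8% and 91.5% in WT bulk, 80.4% and 77.9% in WT transfected, 58.6% and 55.6% in MT1, and 32.8% and 29.8% in MT2. By this measure WT bulk was lower on chromosome 4 than elsewhere, and WT transfected, MT1 and MT2 were higher. MT4, at 50.5% and 85.4% in its own reference, had the widest gap.

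**Figure D1:**
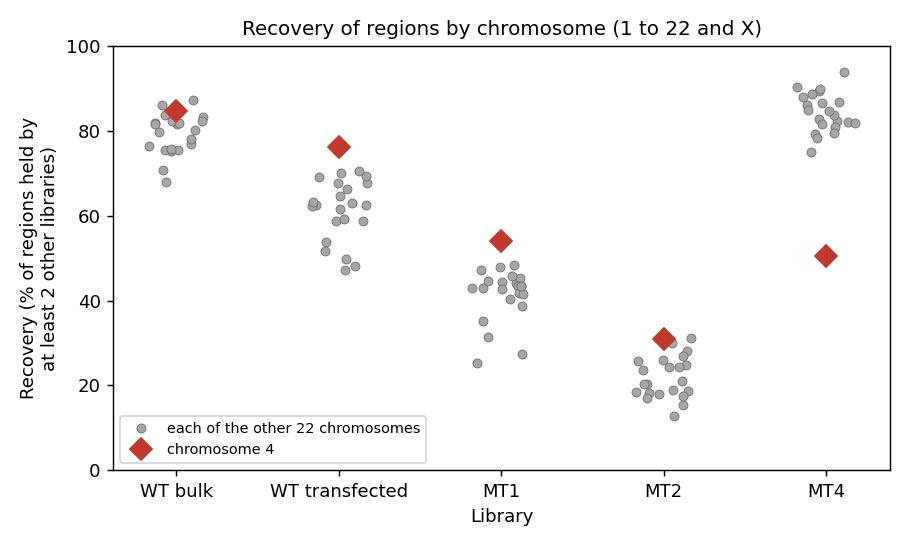
Recovery (%) of regions held by at least 2 other libraries, for each library (x axis). Each grey point is 1 of the other 22 chromosomes and the red diamond is chromosome 4. It lies at 50.5% in MT4, below the lowest of the others (75%). In the remaining 4 libraries it lies above the median of the others, and in WT transfected (76.1%) and MT1 (54.0%) above all of them. References of these 4 libraries count MT4 as a holder.

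The more of the other libraries held a region, the more often MT4 kept it. Of 171 chromosome 4 regions held by exactly 1 other library, MT4 kept 22 (12.9%), against 43.3% of such regions elsewhere. Of 89 held by exactly 2 it kept 31 (34.8%, against 75.1%), of 65 held by exactly 3 it kept 35 (53.8%, against 92.2%), and of 48 held by all 4 it kept 36 (75%, against 98.0%). MT4 recovery was below its value elsewhere in every one of these classes; for regions held by all 4 the Wilson interval was 61.2 to 85.1% on chromosome 4 and 96.8 to 98.8% elsewhere. As the chromosome was chosen for this value, these intervals are no test. All 12 regions held by the 4 other libraries and not by MT4 on chromosome 4 stand against 28 (0.249% of all regions) in the whole series. When each list was limited to the 1426 peaks that score highest, as many as MT2 has, MT4 kept 20 of 80 regions (25%) on chromosome 4 and 61.4% elsewhere.

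Kept and lacked regions also differed in strength. The authors' score of each peak was turned into a percentile within its own list, and the percentiles of the other libraries holding a region were averaged. The median was 61.3 (quartiles 46.0 to 77.3) for the 102 kept regions and 47.3 (33.8 to 60.0) for the 100 lacked ones. Outside chromosome 4 the medians were 56.4 for kept and 37.2 for lacked regions. Lacked regions of chromosome 4 were thus stronger in the other lists than lacked regions elsewhere. In WT bulk, the 87 of them that had a peak there had a median percentile of 63.2, against 42.5 elsewhere, and in WT transfected the values were 51.3 and 33.5. MT1 had a peak in 57% of the lacked regions of chromosome 4 and MT2 in 28%. Elsewhere MT1 had a peak in 44.6% and MT2 in 12.4% of the regions that MT4 lacked. In the kept regions of chromosome 4 these shares were 71.6% and 46.1%.

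The shortfall of MT4 was present at every level of strength. All reference regions of the genome were divided into 4 equal classes by their mean percentile in the other lists. In the weakest class MT4 kept 15 of 45 regions on chromosome 4 (33.3%, 21.4 to 47.9%) and 70.2% elsewhere. In the next 2 classes it kept 24 of 55 (43.6%) and 24 of 49 (48.98%), against 83.9% and 90.8% elsewhere. In the strongest class it kept 39 of 53 (73.6%, 60.4 to 83.6%) and 96.9% elsewhere. The strongest chromosome 4 regions were therefore recovered about as often as the weakest regions of the other chromosomes. Width gave a similar picture: MT4 kept 34.8% of the narrowest class (mean width below 1058 bp; 75.8% elsewhere) and 58.3%, 56.1% and 60% of the wider classes (88.3%, 90.1% and 87.4% elsewhere).

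**Figure D2:**
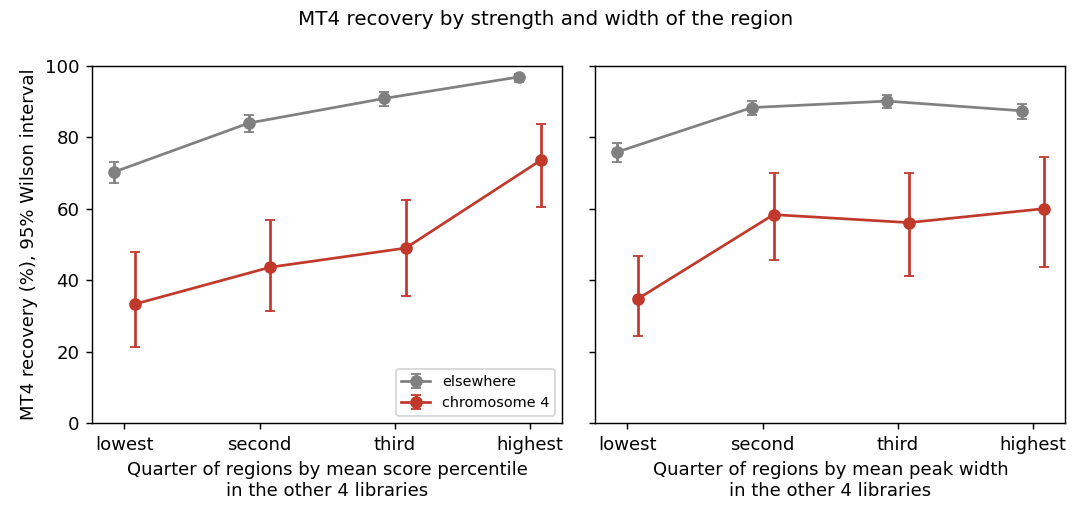
MT4 recovery (%) in 4 equal classes of regions ranked by mean score percentile (left) and mean peak width (right) in the other libraries, on chromosome 4 (red) and elsewhere (grey), with 95% Wilson intervals. Recovery on chromosome 4 rises from 33.3% to 73.6% with score percentile and lies below the grey line in every class.

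Lacked regions lay along the whole chromosome. Below 50 Mb MT4 kept 38 of 69 regions (55.1%, 43.4 to 66.2%) and beyond 50 Mb 64 of 133 (48.1%, 39.8 to 56.5%). In bins of 10 Mb with at least 5 regions, MT4 recovery ran from 30% to 83.3% with a median of 47.2%, and all 14 such bins lay below its recovery outside chromosome 4. With bins of 5 Mb 18 of 20 did, the exceptions being 45 to 50 Mb (12 of 14 kept) and 180 to 185 Mb (6 of 6). Of 230 bins of 10 Mb with at least 5 regions on other chromosomes, 2 were at or below the chromosome 4 median of 47.2%. The lowest bin was 160 to 170 Mb, with 3 of 10 regions kept, where WT transfected held all 10, WT bulk 8, MT2 4 and MT1 3. The highest were 110 to 120 Mb (5 of 6 kept) and 40 to 50 Mb (17 of 22 kept). The bin from the start of the short arm to 10 Mb held the most regions, 33, of which MT4 kept 13. Within it MT4 kept 5 of 6 in the first 1 Mb and 8 of 27 between 1 and 10 Mb. WT bulk held 26 of those 27, WT transfected 23, MT1 17 and MT2 4.

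Kept and lacked regions were interspersed. Of 201 pairs of neighbouring regions, 94 (46.8%) had one kept and one lacked member. Whether this share differs from that of an arrangement without any order was not tested. The longest run of kept regions was 9, from 48907901 to 49517824 (hg19), beside the centromere. WT bulk and WT transfected held all 9 of these, MT1 8 and MT2 6, and the median of their mean percentile in the other lists was 94.6. The longest run of lacked regions was 8, spread over 11.6 Mb from 132671277 to 144273031. WT transfected held 7 of the 8, WT bulk 6, MT1 5 and MT2 2, and their median percentile was 55.9. Another 6 lacked regions in a row lay between 124318732 and 127692924, of which WT transfected held 6, WT bulk 5, and MT1 and MT2 1 each. The median distance from a lacked region to the nearest MT4 peak was 291 kb, the smallest was 4469 bp, and only 2 of the 100 had an MT4 peak within 10000 bp. Lacked regions thus had no MT4 peak just outside the limit for merging. The narrowest gap left between neighbouring regions was 47 bp, and the smallest overlap that joined a pair of peaks was 21 bp.

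**Figure D3:**
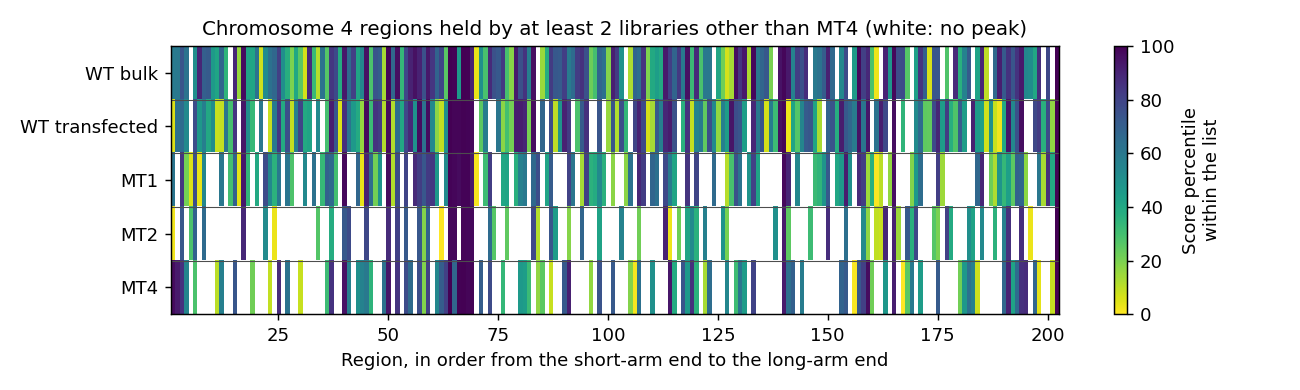
The 202 chromosome 4 regions held by at least 2 libraries other than MT4, in order along the chromosome (x axis), with the score percentile of each library's peak as colour and white where a library had no peak. MT4 has 100 white columns spread over the whole row and a run of 9 kept regions beside the centromere. Its own percentiles in these 9 range from 53.8 to 99.8.

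Among chromosome 4 regions held by all 4 other libraries and lacked by MT4, the strongest lay from 3564879 to 3567369 (hg19, 2491 bp). Its authors' score was 291 in WT bulk, 232 in WT transfected, 208 in MT1 and 157 in MT2, and these peaks stood at percentiles 97.3, 94.4, 93.7 and 88.4 of their lists. All 4 libraries therefore ranked it near the top and MT4 had no peak there above the lowest score kept, 90. The region from 107241651 to 107243102 scored 238 in WT bulk, 199 in WT transfected, 151 in MT1 and 164 in MT2, with percentiles of 92.9, 89.1, 78.0 and 90.5. The third, from 72052082 to 72053644, scored 267 and 266 in the wild-type libraries and 133 and 138 in MT1 and MT2. The fourth, from 140199832 to 140201980, scored 222, 146, 141 and 154 in WT bulk, WT transfected, MT1 and MT2.

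Lower in the same ranking were regions from 174104484 to 174105986, 1243587 to 1246044, 77610107 to 77611265, 159848464 to 159850880, 6223425 to 6224840 and 55522915 to 55524312. Their mean percentile in the other lists fell from 68.9 to 31.2. The region at 1243587 was nearly as wide in each of the other libraries (2279 bp in WT transfected to 2458 bp in MT1), and the one at 55522915 scored from 98.3 in MT2 to 111 in MT1, close to the lower limit. The named lacked regions thus run from peaks at the top of the lists to peaks just above the limit.

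Of the 36 chromosome 4 regions held by all 5 libraries (all such regions are 7.42% of the whole series), the strongest lay near the end of the long arm, from 190942042 to 190944403. Its score was 3100 in WT bulk, WT transfected, MT1 and MT4 and 2509.94 in MT2. The next 4 lay within a stretch of 53.8 kb beside the centromere. The region from 49318158 to 49319293 scored 813 in MT4, 587 in WT bulk, 519 in WT transfected, 434 in MT1 and 428 in MT2. That from 49272231 to 49274201 scored 680, 751, 832, 424 and 275 in the same order. The other two, from 49322749 to 49326017 and from 49288550 to 49291787, scored 343 and 147 in MT4 and between 294 and 463 in the other libraries. The MT4 percentile was 99.99 at the region near the long-arm end. In the 4 regions beside the centromere it was 99.8, 99.8, 98.5 and 67.2, in the order given. How reads were placed in the repeats of these parts was not examined here.

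Away from the centromere the strongest common regions were those from 128543448 to 128545336, 155410265 to 155412898, 40439171 to 40441365 and 39447554 to 39449587. Their MT4 percentiles were 92.7, 91.7, 93.8 and 59.8, against 98.3, 97.9, 98.7 and 95.4 in WT bulk. The widest of the 10, from 49512071 to 49517824, covered 3880 bp in MT4 and 4566 to 5745 bp in the other libraries, and scored 485 in MT4 against 205 to 292.

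The 2 regions common to all 5 libraries that lay nearest the short-arm tip had a higher percentile in MT4 than in the other lists. The region from 27266 to 28746 scored 293 in MT4, at percentile 97.1 of its list, and 136 in WT bulk, 92.2 in WT transfected, 128 in MT1 and 90.5 in MT2, with percentiles of 58.4, 5.11, 61.0 and 1.96. The region from 67229 to 68623 scored 198 in MT4, 162 in WT bulk, 140 in WT transfected, 168 in MT1 and 130 in MT2. Its percentiles were 85.8 in MT4, 73.7 in WT bulk, 64.9 in WT transfected, 84.8 in MT1 and 72.8 in MT2. Another common region in the first 1 Mb, from 981158 to 986430, had its lowest percentile in MT4. It stood at 28.2 in MT4, 50.3 in WT bulk, 76.5 in WT transfected, 76.4 in MT1 and 68.5 in MT2. MT4 had the highest percentile of the 5 lists in 10 of the 36 common regions of chromosome 4 (27.8%) and in 47.4% of the 799 common regions elsewhere, and it had the lowest in 6 (16.7%) and in 3.50% elsewhere. These 10 include the 2 regions nearest the short-arm tip, 2 beside the centromere and the one near the long-arm end. At this last region the score was tied at 3100 in 4 of the lists, so the order of the percentiles there shows no difference in score among these lists. The other 5 lay from 76931515 to 76933184, 80885179 to 80886512, 108852308 to 108853714, 122685646 to 122686986 and 151884192 to 151885756. The 2 regions nearest the short-arm tip and the 10 counted here were singled out after their values were seen. Percentiles give the place within a list, and the lists differ in length.

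The peaks that MT4 kept on chromosome 4 were narrow. In the 112 regions where MT4 and WT bulk both had a peak, the median width was 969 bp in MT4 and 1330.5 bp in WT bulk. The median ratio of the widths within a region was 0.750 (quartiles 0.616 to 0.890), and MT4 was the narrower in 99 of 112. On the other 22 chromosomes the same median ratio lay between 0.939 on chromosome 17 and 1.001 on chromosome 9. The other libraries showed no such departure. The median ratio to WT bulk on chromosome 4 and elsewhere was 0.921 and 0.923 in WT transfected, 0.962 and 0.948 in MT1, and 1.19 and 1.17 in MT2.

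Narrower MT4 peaks were seen beside each of the other libraries. Beside WT transfected the median MT4 ratio was 0.877 on chromosome 4 and 1.05 elsewhere, beside MT1 it was 0.792 and 1.01, and beside MT2 it was 0.658 and 0.842. The 4 pairs with MT4 had a chromosome 4 value between 0.773 and 0.839 times that elsewhere, and the 6 pairs without MT4 between 0.957 and 1.09 times. In the 36 regions common to all 5 libraries the median width was 1099.5 bp in MT4, 1496.5 bp in WT bulk, 1300.5 bp in WT transfected, 1401 bp in MT1 and 1702 bp in MT2. MT4 had the narrowest peak of the 5 in 26 of these 36 (72.2%), against 22.5% of the 799 common regions elsewhere. The 9 common regions in the first 1 Mb, at 49 to 53 Mb and beyond 190 Mb had a median ratio to WT bulk of 0.820 and the 27 others 0.806. Width and presence come from the same MT4 library, so these values are a description of that library.

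**Figure D4:**
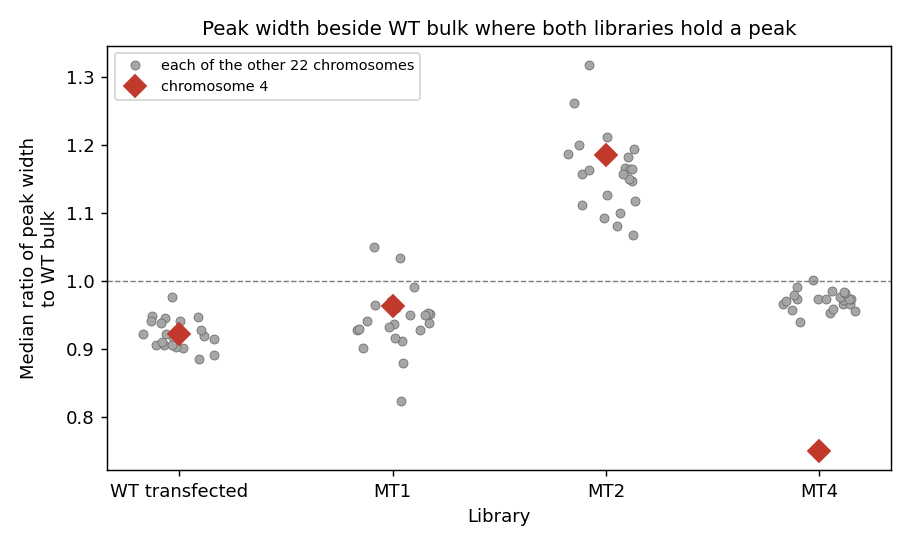
Median ratio of peak width to that of WT bulk, over regions where both libraries hold a peak, for each chromosome (grey) and chromosome 4 (red). Chromosome 4 lies at 0.750 in MT4, where the other chromosomes range from 0.939 to 1.001, and within the range of the other chromosomes in WT transfected, MT1 and MT2.

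Few MT4 peaks on chromosome 4 were its own. MT4 alone held 13 of its 137 regions there (9.49%, 5.63 to 15.6%), against 41.0% elsewhere, and regions held by MT4 alone are 30.1% of all regions of the series. WT bulk alone held 31.4% of its chromosome 4 regions (26.3 to 36.9%), against 21.4% elsewhere, and WT transfected alone 18.02% against 12.9%. A chromosome 4 region that MT4 lacked has 1 holder fewer in this measure. The strongest regions of MT4 alone were 41567 to 42751 and 44136 to 44604 in the first 1 Mb, 106656310 to 106657018, 6979438 to 6980005 and 54966142 to 54966926. Their scores were 121, 116, 118, 107 and 106, none above percentile 47.6 of the MT4 list. Conversely, 81.8% of the MT4 regions on chromosome 4 were also held by WT bulk, 73.0% by WT transfected, 54.0% by MT1 and 34.3% by MT2, where elsewhere these shares were 50.4%, 39.6%, 27.2% and 14.7%.

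The comparison of genotypes on this chromosome turned on MT4. Chromosome 4 held 4.70% of WT bulk peaks, 4.99% of WT transfected, 5.07% of MT1, 5.68% of MT2 and 1.63% of MT4 peaks. The 3 mutated lines averaged 4.13 ± 2.18% (SD, n = 3) and the wild-type cultures 4.84 ± 0.204% (SD, n = 2). Mutated minus wild type was -0.718 percentage points, which is not tested because it includes the MT4 value that chose the chromosome. Without MT4, whose low number of peaks chose the chromosome, the mutated mean was 5.37 ± 0.434% (SD, n = 2). The difference was then 0.529 percentage points (two-sided exact permutation p = 0.333, the smallest that 2 against 2 libraries can give). MT1 and MT2 both lay above both wild-type libraries, and 2 against 2 libraries cannot show a difference. The median peak width on chromosome 4 was 1128 bp in WT bulk, 1077 bp in WT transfected, 1173.5 bp in MT1, 1628 bp in MT2 and 898 bp in MT4. Mutated minus wild type was 131 bp with MT4, again untested, and 298 bp without it (two-sided exact permutation p = 0.333, with 2 against 2 libraries).

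Regions held by both wild-type cultures and by no mutated line numbered 30 on chromosome 4, 7.77% of its 386 regions, against 2.74% of regions in the whole series. Of the 161 chromosome 4 regions held by both wild types, 18.6% had no peak in any mutated line (13.4 to 25.4%), against 8.96% elsewhere. With MT4 set aside, 31.7% (24.99 to 39.2%) had a peak in neither MT1 nor MT2, against 37.2% elsewhere. The higher share of wild-type-only regions on chromosome 4 was thus not seen in MT1 and MT2. The strongest of the 30, from 127691645 to 127692924, stood at percentile 94.9 in WT bulk and 96.0 in WT transfected. It was followed by the regions from 132671277 to 132672032, 124356274 to 124357408, 141676993 to 141678132 and 54275266 to 54276680, at mean wild-type percentiles from 79.2 to 66.3. The first 4 of these 5 belong to the runs of 8 and of 6 lacked regions given above.

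Regions held by all 3 mutated lines and neither wild type numbered 2 on chromosome 4 (0.071% of all regions of the series are of this kind). That from 159680149 to 159681197 scored 98.2 in MT1, 103 in MT2 and 134 in MT4. That from 73385767 to 73387097 scored 147, 93.7 and 97.9 in the same order. Each had at least 1 score under 100, close to the lower limit of 90.

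Chromosome 4 carries several gene families in tandem. From the short-arm end to the long-arm end, RefSeq (GRCh38.p14) places the KRAB zinc finger genes ZNF595 to ZNF721, the Toll-like receptor genes TLR10, TLR1 and TLR6, the GABA receptor genes GABRG1 to GABRB1, the receptor tyrosine kinase genes PDGFRA, KIT and KDR, the UGT2 glucuronosyltransferases, the caseins, the albumin family, the CXC chemokines, the alcohol dehydrogenases, the fibrinogen genes, and FRG1 and DUX4. The peaks are in hg19, and no hg19 annotation or genome was used here, so no region was assigned to a gene or cluster and no base sequence is given. The order is background on the chromosome, and whether the kept or the lacked regions fall in these families was not tested.

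A region missing from MT4 is one without a peak at or above a score of 90. Whether the DNA there was less methylated, was captured less well or lacked a peak for another reason cannot be told from peak lists. Neither input libraries nor read counts were used here, and the number of copies of chromosome 4 in each line was not tested.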

How the data were processed

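MeDIP-seq peak lists of 5 K562 libraries were used. The submitters' processing notes name Bowtie 1.1.1, edgeR and hg19 without their roles. Per the peak names in the files the caller was MACS, and each library has its own peak list. The caller's version, threshold and control were not given in the sources used here. In the authors' lists the score of each peak starts at 90 in each list, and starts and ends are in base pairs, as deposited by the authors. No read totals were used here, so depth per peak is unknown.

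Peaks overlapping by at least 1 bp were merged (pandas 2.3.3 and numpy 2.4.6 under Python 3.11.15; intervals with scipy 1.17.1). Width is the number of base pairs a library's peaks cover in a region, and the highest score was taken. Starts are printed counted from 1. Intervals are 95% Wilson intervals; neighbouring regions are not independent. The genotypes were compared by exact permutation over libraries, doubling the smaller tail. The labels do not say whether lines came from separate edits, so p-values measure only the spread between these libraries. Merging and recovery were tested on simulated lists. Alternatives were other reference rules, score limits, list lengths, overlaps, bins and left-out libraries.

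Named regions were the 10 strongest held by all 4 others and not MT4, the 10 strongest held by all 5, the 5 strongest of MT4 alone and of both wild types alone, those of the 3 mutated lines alone, the longest runs and the extreme bins. The members and lists were chosen with earlier results of these data known.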

Additional observations from a re-analysis of the deposited data

How the results depend on the processing

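MT4 recovery was lower on chromosome 4 than elsewhere in all 13 alternatives run, by 23.04 to 38.2 percentage points (34.9 in the report). All 13 reuse the MT4 list whose low number of peaks chose the chromosome, so their shared direction is no test. The smallest difference, 23.04, was found for regions held by all 4 other libraries. Recovery on chromosome 4 was 33.2% for regions held by at least 1 other library, 62.8% for at least 3, 75% for all 4 and 25% with lists of equal length. Leaving out one of the other libraries gave 51.1 to 58.1%, the highest without WT bulk. The number of lacked regions, 100 in the report, was 249, 42 and 12 for at least 1, at least 3 and all 4 other libraries, 45 at scores of 121.64 or more (the median of all peaks), 60 with lists of equal length, and from 54 to 93 when one library was left out (54 without WT bulk, 59 without WT transfected), as fewer regions then enter the reference. An overlap of 50% or merging across 500 bp gave 101 each. Chosen after the data were seen, leaving out 40 to 50 Mb gave a recovery of 47.2%, and leaving out the first 1 Mb, 49 to 53 Mb and beyond 190 Mb gave 47.3%. The median over bins was 50% with bins of 5 Mb and 50.8% with bins of 20 Mb. The difference in share of peaks between genotypes ran from -1.50 to 0.529 percentage points without one library, and its sign turned only without MT4; in the other 7 alternatives it stayed negative. No paired analysis was possible because no label ties a mutated line to one of the wild-type cultures. The score limit of 90 and the lack of read totals limit every absence.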
